A study of Mus musculus with 4 samples.

Results

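Mineralization and calcification regulators were followed as a set of 8 genes, *Mgp*, *Spp1*, *Ibsp*, *Alpl*, *Phospho1*, *Enpp1*, *Ank* and *Phex*, chosen by name among the 23284 gene symbols of the count tables. All 8 were found. The cells came from limbs of C57BL/6J mouse embryos at E13.5 and were sorted by FACS as live GFP+ cells, GFP being expressed from the *Osr1* locus by the knock-in GCE allele (eGFP with CreERt2). RNA was sequenced from 2 Osr1 GCE/+ embryos, which keep 1 intact *Osr1* allele, and from 2 Osr1 GCE/GCE embryos, which have none. Both genotypes carry the reporter and no wild-type cells were included, so each comparison sets loss of both alleles against loss of 1.

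Hydroxyapatite forms in cartilage and bone matrix when inorganic phosphate is released and pyrophosphate, which blocks crystal growth, is removed. Phosphatases (*Alpl*, *Phospho1*) shift this balance towards mineral, whereas pyrophosphate supply (*Enpp1*, *Ank*) and matrix Gla protein (*Mgp*) hold soft tissue, cartilage and arteries free of it. Osteopontin (*Spp1*) and bone sialoprotein (*Ibsp*) are acidic phosphoproteins of the SIBLING family that bind mineral and integrins, and *Phex* encodes a membrane peptidase of bone cells that cleaves mineral-binding peptides. Connective tissue does not normally mineralize, and limb bones have not yet begun to do so at this stage.

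Of the 8 genes, 7 had enough counts to be tested, and *Mgp* alone passed an adjusted p of 0.1, being higher in GCE/GCE cells. Across all 15645 genes tested, 1.82% passed in either direction, 0.895% as higher and 0.927% as lower. DESeq2, run on the same counts, passed *Mgp* as higher and *Spp1* as lower, beside 3.25% of all genes, 1.65% as higher and 1.6% as lower. Samples of the genotypes did not overlap for 4 of the 7, with *Mgp*, *Enpp1* and *Phex* higher and *Spp1* lower in both GCE/GCE samples, while 38.4% of all genes tested were separated in this way, 19.2% with both GCE/GCE samples above and 19.1% with both below. Log2 fold changes had a median of 0.09 over the 7 members and of 0.00 over all genes tested. Levels are given as CPM, counts scaled to library size with the TMM correction, and are shown for all 8 genes in the plot of CPM by sample. The test was edgeR's quasi-likelihood F-test across all genes, with Benjamini-Hochberg adjusted p-values.

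**Figure D1:**
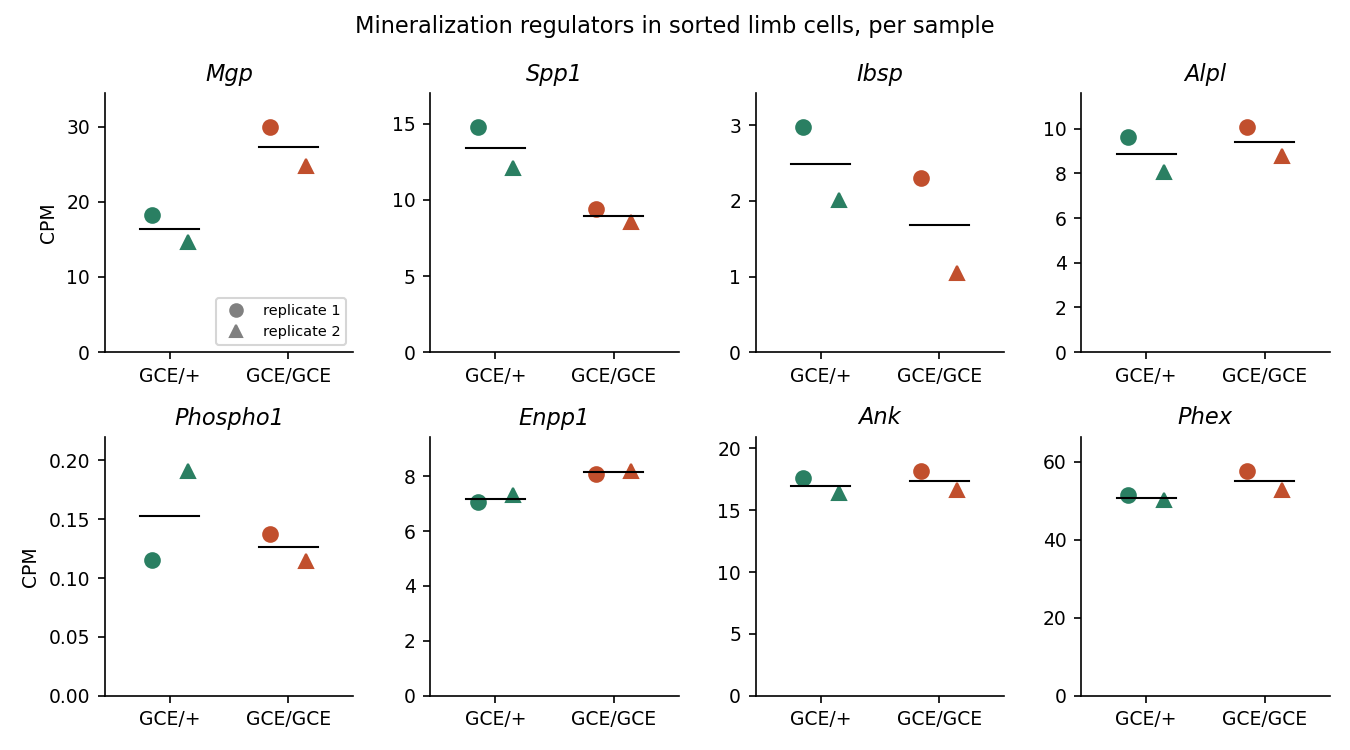
CPM (each axis from 0) of the 8 genes in each sample. Circles are replicate 1 and triangles replicate 2 of each genotype, and black lines are means of 2 samples. *Mgp* runs from 14.6 to 18.3 CPM in GCE/+ cells and from 24.8 to 29.9 CPM in GCE/GCE cells, and *Spp1* is lower in both GCE/GCE samples.

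The samples were of similar depth, 52121596 to 61402140 counts, and *Osr1* fell from 81.9 and 79.1 CPM in GCE/+ cells to 11.9 and 13.9 CPM in GCE/GCE cells (edgeR adjusted p = 5.94e-05). The summed CPM of 9 connective tissue markers, *Osr1* among them, was 20800 to 23040 in GCE/+ and lower, at 17390 to 20050, in GCE/GCE samples. *Col3a1*, *Col1a2* and *Col1a1* weigh most in it. Of the 9 log2 fold changes 8 were negative. In edgeR 1 of the 9 passed as lower (*Osr1*), beside 0.927% of all genes. DESeq2 passed 4 as lower, beside 1.6%. *Xist*, transcribed from the inactive X chromosome, stood at 1142 CPM in GCE/GCE replicate 1 and at 0.572 to 2.63 CPM in the other samples. The labels do not say whether embryos were littermates. In bulk RNA of this kind, fewer cells of a type and less RNA per cell cannot be told apart. With 2 samples against 2, an exact two-sided permutation test cannot give a p below 0.33, so each test rests on a spread shared between genes.

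Promoter sequence was available for 7 of the 8 genes and not for *Mgp*, which was therefore not searched. It came in 9 windows of 250 bases before to 50 after a transcription start (RefSeq, GRCm38.p6). These were searched for the RUNX core TGTGGT on both strands, the motif bound by *Runx2*, the principal osteoblast transcription factor. The core was found in 2 of the 9 windows, 1 each of *Spp1* and *Enpp1*, and in 16.8% of all 32851 windows of that length. Both are shown as the 250 bases before the start, 5′ to 3′ on the strand of the gene, with the core in capitals (ACCACA, as it reads on this strand). *Spp1* is read from chr5:104434861-104435110 on the plus strand and *Enpp1* from chr10:24712160-24712409 on the minus strand. A match is a description of the letters and not a binding site.
Spp1: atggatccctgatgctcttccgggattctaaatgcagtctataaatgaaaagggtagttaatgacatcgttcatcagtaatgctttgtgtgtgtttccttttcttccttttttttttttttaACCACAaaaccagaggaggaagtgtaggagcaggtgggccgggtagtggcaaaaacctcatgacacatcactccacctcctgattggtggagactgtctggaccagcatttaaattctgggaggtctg
Enpp1: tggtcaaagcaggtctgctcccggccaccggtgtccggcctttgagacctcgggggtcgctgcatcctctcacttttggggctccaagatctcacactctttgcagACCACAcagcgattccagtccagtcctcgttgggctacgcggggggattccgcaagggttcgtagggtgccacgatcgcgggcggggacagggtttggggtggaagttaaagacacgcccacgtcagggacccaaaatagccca
In *Spp1* the core begins 128 bases before the start, and in *Enpp1* 144 bases before it. The log2 fold changes of these genes, given with their levels further on, had opposite signs and neither passed the test.

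*Mgp*, which encodes a vitamin K-dependent inhibitor of calcification, rose in GCE/GCE cells. The gene lies on chromosome 6 of GRCm38 from 136872435 to 136875823. It had 18.3 and 14.6 CPM in GCE/+ replicates 1 and 2, and 29.9 and 24.8 CPM in GCE/GCE replicates 1 and 2. Both GCE/GCE samples were above both GCE/+ samples, and the lower of them exceeded the higher GCE/+ sample by more than the gap between the GCE/+ samples. The means were 16.4 ± 2.61 and 27.3 ± 3.62 CPM (SD, n = 2 each), and the fold was 1.66 (95% interval 1.32 to 2.09). The log2 fold change was 0.73 (SE 0.14, edgeR adjusted p = 0.068, DESeq2 adjusted p = 0.000542). Fits that left out 1 sample each gave 0.58 to 0.90. The call was lost with upper quartile scaling (edgeR adjusted p = 0.1) and with no filter on low counts (edgeR adjusted p = 0.153), and *Mgp* was not past a threshold of 0.05.

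Over the 4 samples, the 3 genes whose centred log2 CPM were closest to those of *Mgp*, among 9763 others with a mean of at least 10 CPM, were *Fmod*, *P4ha3* and *Pax1*. The root mean square difference was 0.044, 0.061 and 0.066 on the log2 scale. *Fmod*, which encodes the collagen-binding proteoglycan fibromodulin, had 52.6 and 43.6 CPM in the GCE/+ samples, against 88.5 and 77.7 CPM in GCE/GCE. *P4ha3*, which encodes a collagen prolyl hydroxylase subunit, had 37.5 and 27.0 CPM in the GCE/+ samples, against 61.2 and 47.9 CPM in GCE/GCE. With 4 samples many genes have profiles of this shape, and likeness is given as a description.

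The SIBLING genes *Spp1* and *Ibsp* both had log2 fold changes of -0.58, with unequal precision. They lie on chromosome 5 of GRCm38, *Ibsp* from 104299171 to 104311469 and *Spp1* from 104435118 to 104441050, separated by 123648 bases. *Spp1* had 14.8 and 12.1 CPM in the GCE/+ samples, against 9.41 and 8.53 CPM in GCE/GCE. Both GCE/GCE samples were below both GCE/+ samples. The means were 13.4 ± 1.92 and 8.97 ± 0.621 CPM (SD, n = 2 each), a ratio of 0.667 (95% interval 0.529 to 0.842). This did not pass the threshold in the main test (SE 0.15, edgeR adjusted p = 0.131, unadjusted p = 0.00365), whereas DESeq2 gave an adjusted p of 0.041. Across 11 other settings with all samples the adjusted p ran from 0.041 to 0.203. *Spp1* also passed without GCE/+ replicate 2 (edgeR adjusted p = 0.0486) and without GCE/GCE replicate 1 (edgeR adjusted p = 0.0465). It did not pass without GCE/+ replicate 1 (log2 fold change -0.43, edgeR adjusted p = 0.398) or without GCE/GCE replicate 2 (log2 fold change -0.51, edgeR adjusted p = 0.298).

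*Ibsp*, whose product can nucleate hydroxyapatite, had 2.97 and 2.01 CPM in the GCE/+ samples, against 2.31 and 1.05 CPM in GCE/GCE. The genotypes overlapped, since GCE/GCE replicate 1 lay between the GCE/+ samples. These values rest on 181, 105, 134 and 64 counts. GCE/GCE replicate 2, at 1.05 CPM (95% Poisson interval 0.805 to 1.34), was the lowest of the 4, and the GCE/GCE samples differed 2.21-fold between themselves. The ratio of genotypes was 0.667 with an interval from 0.378 to 1.18 (SE 0.36 on the log2 scale, edgeR adjusted p = 0.694). Leaving out samples gave log2 fold changes from -1.27 to -0.12. The extreme came without GCE/GCE replicate 1, where *Ibsp* passed (edgeR adjusted p = 0.013), and the smallest difference came without GCE/GCE replicate 2.

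**Figure D2:**
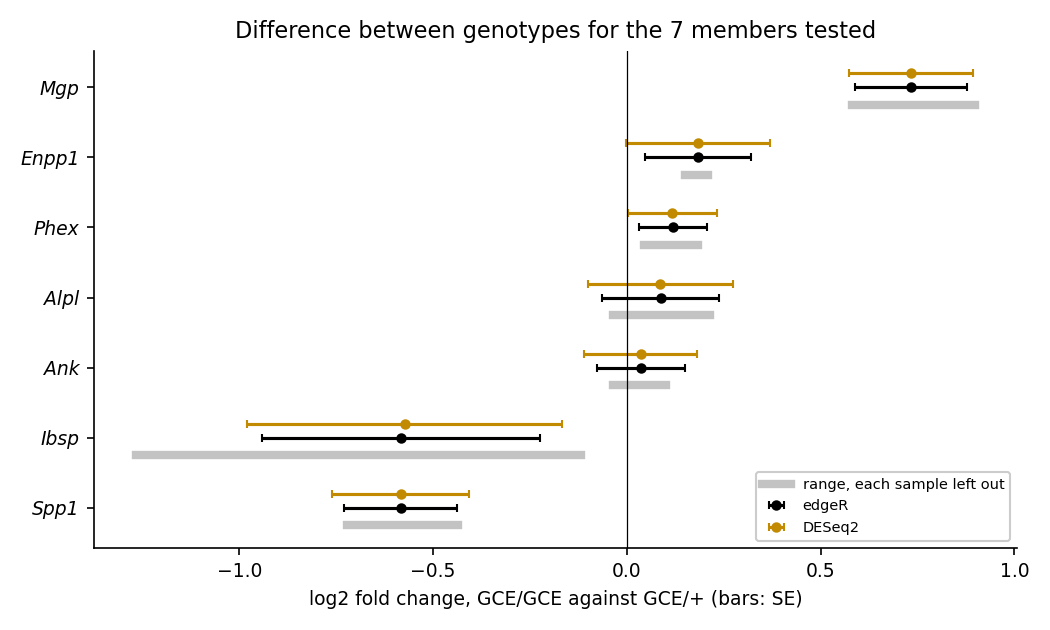
Log2 fold change of GCE/GCE against GCE/+ cells for the 7 genes tested, from edgeR (black) and DESeq2 (yellow) with bars of 1 SE, and the range of edgeR values in fits that left out 1 sample each (grey). *Mgp* lies at 0.73 and *Spp1* and *Ibsp* at -0.58, and the grey range of *Ibsp* is the widest, from -1.27 to -0.12.

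Of the phosphatases, *Alpl*, which encodes the tissue-nonspecific alkaline phosphatase that hydrolyses pyrophosphate, was expressed in all samples. It had 9.64 and 8.07 CPM in the GCE/+ samples, against 10.1 and 8.77 CPM in GCE/GCE, so the genotypes overlapped. The log2 fold change was 0.09 (SE 0.15, edgeR adjusted p = 0.947), and the 95% interval of the fold ran from 0.835 to 1.35. *Phospho1*, which encodes a phosphatase of matrix vesicles, had 7 and 10 counts in GCE/+ and 8 and 7 counts in GCE/GCE samples, or 0.114 to 0.191 CPM. It did not pass the filter on low counts and was not tested. In the sample with the most *Phospho1* counts the 95% Poisson interval was 0.0917 to 0.352 CPM, which covers the other 3 values, so a difference was not detectable at this depth.

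Neither gene of pyrophosphate supply passed the test. *Enpp1*, which encodes the ectoenzyme that makes pyrophosphate from extracellular ATP, had 7.05 and 7.31 CPM in the GCE/+ samples, against 8.10 and 8.20 CPM in GCE/GCE. Samples of the genotypes were separated, but the log2 fold change was 0.18 (SE 0.14, edgeR adjusted p = 0.781) with a fold interval from 0.913 to 1.41. *Ank*, which encodes a membrane protein that raises extracellular pyrophosphate, had 17.6 and 16.4 CPM in the GCE/+ samples, against 18.2 and 16.6 CPM in GCE/GCE. These overlapped, with a log2 fold change of 0.04 (SE 0.11, edgeR adjusted p = 0.97) and a fold interval from 0.856 to 1.23. The directions of *Alpl* and *Ank* turned to -0.03 and -0.01 without GCE/+ replicate 2, and to -0.02 and -0.04 without GCE/GCE replicate 1.

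The ratio of *Alpl* to *Enpp1*, on the length-scaled levels described below, was 3.68 and 2.97 in the GCE/+ samples, against 3.34 and 2.87 in GCE/GCE. That of *Alpl* to *Ank* was 0.761 and 0.685 in the GCE/+ samples, against 0.767 and 0.732 in GCE/GCE. Neither ratio separated the genotypes.

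*Phex*, on the X chromosome, had the most CPM of the 8 genes, with 51.5 and 50.1 CPM in the GCE/+ samples, against 57.7 and 52.6 CPM in GCE/GCE. Both GCE/GCE samples were higher, but the log2 fold change of 0.12 did not pass (SE 0.09, edgeR adjusted p = 0.778), and the fold interval ran from 0.944 to 1.25. The highest value was that of GCE/GCE replicate 1, the sample with *Xist* at 1142 CPM. That sample was also the highest for *Mgp*, *Alpl* and *Ank*, but not for *Spp1*, *Ibsp*, *Phospho1* or *Enpp1*. The log2 fold change of *Phex* was 0.04 without GCE/GCE replicate 1 and 0.18 without GCE/GCE replicate 2. A relation to *Xist* was not tested.

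Levels of different genes were compared as CPM per kb of transcript. In GCE/+ cells the order of means was *Mgp*, *Spp1*, *Phex*, *Ank*, *Alpl*, *Ibsp*, *Enpp1* and *Phospho1*, with 26.6 ± 4.23 CPM per kb for *Mgp*, 8.91 ± 1.27 for *Spp1*, 8.11 ± 0.158 for *Phex* and 4.85 ± 0.247 for *Ank* (SD, n = 2). *Alpl* followed at 3.51 ± 0.440 CPM per kb, *Ibsp* at 1.20 ± 0.330, *Enpp1* at 1.06 ± 0.0271 and *Phospho1* at 0.0802 ± 0.0282 (SD, n = 2). *Spp1* and *Phex* overlapped in GCE/+ cells, as did *Ibsp* and *Enpp1*, and the other neighbours in the order did not. Against a median of 7.20 CPM per kb among genes tested, *Mgp* stood at the percentile 81.3, *Spp1* at 54.8 and *Enpp1* at 22.8. In GCE/GCE cells *Mgp* stayed in first place at 44.3 ± 5.87 CPM per kb (SD, n = 2). There *Phex* stood above *Spp1* and *Enpp1* above *Ibsp*, and no neighbours in the order overlapped.

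**Figure D3:**
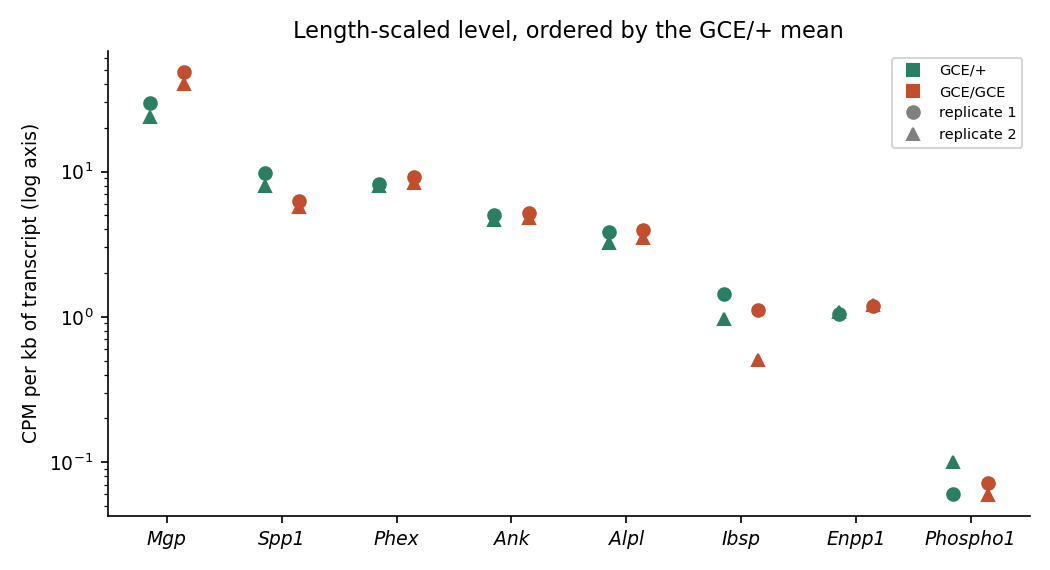
CPM per kb of transcript (log axis) of the 8 genes in each sample, ordered by the GCE/+ mean. Green is GCE/+, orange GCE/GCE, circles replicate 1 and triangles replicate 2. *Mgp* lies above the other genes in all 4 samples, and *Phospho1* lies below *Enpp1* and *Ibsp* in all 4.

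A wider list of 67 mineralization genes in 6 sublists was described alongside. Of these, 57 were tested, and 3 passed, all higher in GCE/GCE cells. This is 5.26% of those tested, beside 1.82% of all genes. The list was chosen with earlier results of these data known, so this share is a description only. The median log2 fold change of the 57 was 0.02. *Runx2* had 31.6 and 37.4 CPM in the GCE/+ samples, against 68.2 and 74.7 CPM in GCE/GCE (log2 fold change 1.05, SE 0.11, edgeR adjusted p = 0.0121). *Foxc1*, a forkhead factor of skeletal mesenchyme, had 15.8 and 16.8 CPM in the GCE/+ samples, against 26.1 and 28.9 CPM in GCE/GCE (log2 fold change 0.76, SE 0.11, edgeR adjusted p = 0.030). *Fam20a*, a partner of the Golgi kinase Fam20C that phosphorylates SIBLING proteins, had 2.37 and 1.30 CPM in the GCE/+ samples, against 5.13 and 5.02 CPM in GCE/GCE (log2 fold change 1.46, SE 0.26, edgeR adjusted p = 0.0534). For all 3 genes both GCE/GCE samples were above both GCE/+ samples, as for 19.2% of all genes tested.

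Of 12 osteoblast transcription factors tested, 2 passed (*Runx2* and *Foxc1*), both higher, beside 0.895% of all genes as higher. At an unadjusted p under 0.05 in edgeR there were 5 of the 12, beside 10.5% of all genes tested. *Sp7*, which acts after *Runx2* and is required for osteoblasts, had 1.49 and 1.82 CPM in the GCE/+ samples, against 2.45 and 1.83 CPM in GCE/GCE (edgeR adjusted p = 0.716). The most highly expressed of this sublist, *Atf4* and *Cbfb*, had log2 fold changes of -0.09 and 0.04. *Cbfb* encodes the DNA-binding partner of the RUNX factors. DESeq2 passed 3 of the 12, all as higher, beside 1.65% of all genes as higher.

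Of 11 genes for mineral-protein kinases, peptidases and glycosylation, 1 passed, *Fam20a*, beside 1.82% of all genes tested. At an unadjusted p under 0.05 in edgeR there were 4 of the 11, beside 10.5% of all genes. *Ctsb*, a lysosomal protease that macrophages also express, had 455.6 and 448.5 CPM in the GCE/+ samples, against 359.6 and 304.2 CPM in GCE/GCE (log2 fold change -0.45, SE 0.10, edgeR adjusted p = 0.11, DESeq2 adjusted p = 0.00408). *Mme*, which encodes neprilysin, a peptidase related to Phex, had a log2 fold change of -0.03.

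None of 11 phosphate and pyrophosphate genes passed in edgeR or DESeq2, and the largest in level, the phosphate transporter *Slc20a1* and the metal transporter *Slc39a14*, had log2 fold changes of -0.05 and 0.00. Nor did any of the 6 bone matrix genes, 7 inhibitor and vitamin K cycle genes or 10 matrix vesicle and calcium-binding genes that could be tested, by either tool. At an unadjusted p under 0.05 in edgeR there were 1 of the 11, 1 of the 6, 2 of the 7 and 1 of the 10, beside 10.5% of all genes tested. The named genes of these sublists were not past that level. *Sparc*, which encodes the collagen-binding protein osteonectin, had 1422 and 1221 CPM in the GCE/+ samples, against 1291 and 983.3 CPM in GCE/GCE. *Tnn*, a tenascin gene of developing bone surfaces, had a log2 fold change of 0.36. *Ggcx*, the gamma-carboxylase that activates matrix Gla protein, had 53.9 and 50.5 CPM in the GCE/+ samples, against 54.8 and 51.1 CPM in GCE/GCE, and *Gas6*, another Gla protein gene, had a log2 fold change of -0.25. *Anxa6* and *Bmp1*, the most highly expressed matrix vesicle and processing genes, had log2 fold changes of -0.19 and 0.06.

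Several genes of mature bone had few or no counts. *Bglap*, the osteocalcin gene, was at 0.0493 CPM or less, but belongs to a cluster of near-identical copies whose counts are uncertain, and *Bglap2* and *Mepe* had no count in any sample. *Dspp* and *Ahsg*, the latter of which encodes the serum inhibitor fetuin-A, had no count in at least 1 sample. *Dmp1*, a SIBLING gene of osteocytes, had 20 to 42 counts a sample, or 0.345 to 0.686 CPM (edgeR adjusted p = 0.978).

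**Figure D4:**
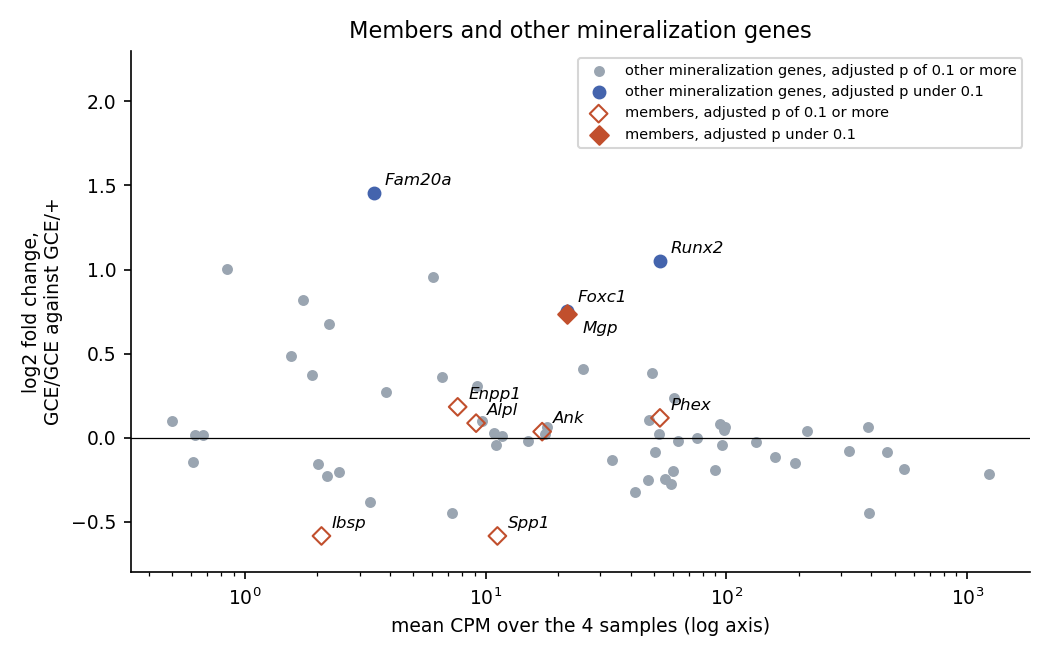
Log2 fold change of GCE/GCE against GCE/+ cells over mean CPM (log axis) for the 7 members tested (diamonds) and 57 other mineralization genes (circles). Filled diamonds and blue circles have an edgeR adjusted p under 0.1. *Fam20a* (1.46), *Runx2* (1.05), *Foxc1* (0.76) and *Mgp* (0.73) passed, and no other point did.

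Markers of cells that also express these regulators were summed in each sample. The 16 cartilage markers had 803.8 and 1232 CPM in GCE/+ replicates 1 and 2 and 1706 and 1885 CPM in GCE/GCE replicates 1 and 2. Each of the 16 had both GCE/GCE values above both GCE/+ values, beside 19.2% of all genes tested. Of the 16, 6 passed as higher (edgeR adjusted p under 0.1), beside 0.895% of all genes. *Mgp*, which cartilage cells express, was likewise higher in both GCE/GCE samples. In replicate 2 of each genotype *Mgp* was lower, and the cartilage sum higher, than in replicate 1. *Spp1*, *Ibsp*, *Alpl*, *Ank* and *Phex* were also lower in replicate 2 of both genotypes. Hypertrophic cartilage markers (6 genes) summed to 107.2 to 124.9 CPM in GCE/+ and 109.6 to 114.9 CPM in GCE/GCE samples. *Pth1r* and *Mef2c* had the highest mean CPM of the 6 and weigh most in these sums. None of the 6 passed in edgeR or DESeq2 (1 at an unadjusted p under 0.05, a level that 10.5% of all genes tested reached). That 1 was *Panx3*, with means of 1.44 CPM in GCE/+ and 2.74 CPM in GCE/GCE. *Col10a1*, which defines hypertrophic chondrocytes, stood at 0.115 to 0.402 CPM. The 8 smooth muscle and pericyte markers, cells in which *Mgp* is abundant, summed to 208.9 and 209.2 CPM in GCE/+ and to 205.5 and 246.3 CPM in GCE/GCE samples. In edgeR 0 of the 8 passed, and 2 had an unadjusted p under 0.05, beside 10.5% of all genes. These were *Kcnj8* and *Abcc9*, with log2 fold changes of -0.80 and -0.29. DESeq2 passed *Kcnj8* as lower, beside 1.6% of all genes. *Acta2* and *Cspg4* were higher in both GCE/GCE samples. The part of cartilage, smooth muscle and pericyte cells in the *Mgp* difference was not tested.

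Macrophages and osteoclasts express *Spp1*. The 14 macrophage markers summed to 385.3 and 388.3 CPM in GCE/+ replicates 1 and 2 and to 241.2 and 168.3 CPM in GCE/GCE replicates 1 and 2. Of the 14, 11 passed as lower (edgeR adjusted p under 0.1), beside 0.927% of all genes tested. For each of the 14, both GCE/GCE values lay below both GCE/+ values, beside 19.1% of all genes. The same held for *Spp1*. Of 9 osteoclast markers, 6 were tested and none passed in edgeR or DESeq2 (1 at an unadjusted p under 0.05, beside 10.5% of all genes). The sum of the 9 was 77.4 and 89.3 CPM in GCE/+ and 60.3 and 89.3 CPM in GCE/GCE samples. *Ctsk* had the highest mean CPM and weighs most in it. Of the 6 tested, *Acp5* and *Itgb3* were lower and *Mmp9* higher in both GCE/GCE samples, beside 19.1% and 19.2% of all genes. *Dcstamp* (listed as *Tm7sf4*), needed for osteoclast fusion, had no count in 1 sample. The lowest osteoclast sum was in GCE/GCE replicate 2, the sample with the lowest *Ibsp*. That sample also had the lowest sums of macrophage, endothelial, smooth muscle and pericyte, and connective tissue markers, though not of the other lists. Osteoblast markers (8 genes, 5 tested, none past the threshold in edgeR or DESeq2 and 1 at an unadjusted p under 0.05) summed to 13.2 and 15.7 CPM in GCE/+ and to 16.7 and 16.8 CPM in GCE/GCE samples, with *Bglap* and *Bglap2* at no count in at least 1 sample. The part of macrophages, osteoclasts and osteoblasts in the *Spp1* and *Ibsp* values was not tested.

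The sums of endothelial, muscle and tendon markers overlapped between the genotypes, although single tendon genes differed. The 8 endothelial markers summed to 96.5 and 120.2 CPM in GCE/+ and to 80.8 and 97.2 CPM in GCE/GCE samples. The 8 skeletal muscle markers summed to 155.0 and 177.0 CPM in GCE/+ and to 175.2 and 200.7 CPM in GCE/GCE samples, with *Ckm* at no count in 1 sample. In neither list did a gene pass in edgeR, where 4 of 8 endothelial and 1 of 7 muscle genes tested had an unadjusted p under 0.05 (10.5% of all genes), and in DESeq2 1 endothelial gene passed. The 7 tendon markers summed to 602.1 to 667.5 CPM in GCE/+ and 605.6 to 714.3 CPM in GCE/GCE samples. *Col14a1*, *Thbs4* and *Kera* had the highest mean CPM and weigh most in these sums. In edgeR 3 passed as higher (*Tnmd*, *Mkx* and *Fmod*) and 1 as lower (*Kera*), beside 0.895% and 0.927% of all genes. *Tnmd* had means of 11.9 CPM in GCE/+ and 49.6 CPM in GCE/GCE. *Fmod*, the gene closest in profile to *Mgp*, had means of 48.1 and 83.1 CPM, and *Kera* of 110.9 and 67.6 CPM.

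**Figure D5:**
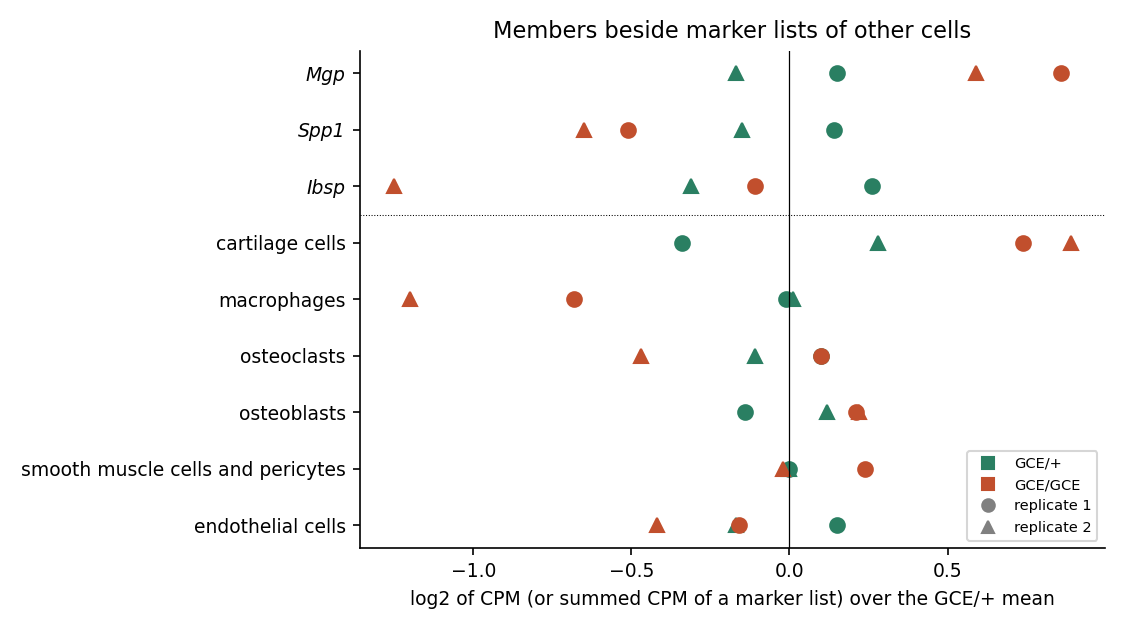
Level of *Mgp*, *Spp1* and *Ibsp* (above the dotted line) and summed CPM of marker lists of other cells (below it) in each sample, as log2 of the value over the GCE/+ mean. Green is GCE/+, orange GCE/GCE, circles replicate 1 and triangles replicate 2. Macrophage markers lie at -0.68 and -1.20 in GCE/GCE cells, *Spp1* at -0.51 and -0.65, cartilage markers at 0.74 and 0.89, and *Mgp* at 0.86 and 0.59.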

How the data were processed

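RNA of sorted GFP+ limb cells was sequenced from 2 embryos of each genotype. The authors used TopHat2 for mapping to mm9, guided by UCSC gene models, and HTSeq for counting in intersection-strict mode. Tool versions were not given in the sources used here. The deposited values are raw counts per gene symbol, without normalization.

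Counts from all 4 samples were filtered with filterByExpr (minimum count 10), scaled by TMM and fitted with the quasi-likelihood model of edgeR 4.0.16 in R 4.3.3. Tests were two-sided, p-values were Benjamini-Hochberg adjusted over all 15645 genes tested, and the threshold was 0.1. The SE of a log2 fold change is its size divided by the square root of F, and 95% intervals used the degrees of freedom of that test. CPM use TMM-scaled library sizes. Length-scaled levels are CPM per kb of the principal GENCODE M21 transcript, a GRCm38 annotation to which 99.0% of symbols matched. The authors' table gives no lengths. Depth was 52121596 to 61402140 counts a sample, so 3 counts amount to at most 0.0576 CPM. Intervals and floors cover counting error only.

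In simulated counts for this comparison (200 changed genes among 15645, 5 simulations), edgeR recovered 94.6% of genes changed by 1 on the log2 scale and 43.4% of those changed by 0.5, and 16.4% of its calls were false. The changed genes were drawn from those with a mean of at least 1 CPM, so recovery of lower genes was not measured. The simulated spread was the one estimated from these same samples. DESeq2 1.42.0 and the other alternatives are described after the report. Figures were drawn with matplotlib 3.10.9.

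The members and gene lists were chosen with earlier results of these data known. Genes named are the 8 members, *Osr1*, every gene of a wider mineralization list past the threshold, the 2 with the highest mean CPM in each of its 6 sublists, 5 defining genes (*Runx2*, *Sp7*, *Dmp1*, *Bglap* and *Ahsg*), and, for a member past the threshold, the 3 genes with the most alike profile. Markers with no count in a sample are named as well, and *Xist* and single markers with values were added after their values were seen. Protein sequences were not used here.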

Additional observations from a re-analysis of the deposited data

How the results depend on the processing

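The number of genes past the threshold was 285, and became 502 with DESeq2, 127 without a filter and 130 at an adjusted p of 0.05. Leaving out samples gave 199 to 961, the most without GCE/+ replicate 2, and 748 without GCE/GCE replicate 1. In these fits the lone sample is assumed to vary like the others. The count of the 7 members past it, 1, became 2 with DESeq2 and 0 with upper quartile scaling, no filter or the 0.05 threshold, and ranged from 1 to 3 on leaving out samples. That of other mineralization genes, 3, became 5 with DESeq2 and 5 with transcript length offsets together with the replicate block, 2 without a filter and 2 at the 0.05 threshold, and 4 to 7 on leaving out samples.

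*Mgp* was positive under every alternative run, with an adjusted p of 0.1 at 0.71 with upper quartile scaling and 0.153 at 0.73 without a filter (edgeR). *Spp1* was negative under every alternative run, at -0.58 and past the threshold with DESeq2, and ran from -0.72 to -0.43 on leaving out samples. *Ibsp* ran from -1.27 to -0.12 in those fits and *Mgp* from 0.58 to 0.90. *Alpl* ran from -0.03 to 0.22, reversing to -0.034 without GCE/+ replicate 2 and -0.022 without GCE/GCE replicate 1, and *Ank* from -0.04 to 0.10, reversing to -0.014 and -0.037. *Enpp1*, *Phex* and *Osr1* kept their direction and side of the threshold. Of the 8 ranks by level, 2 stayed with CPM not divided by length. The cause of these changes was not tested, apart from the omitted sample, filter, threshold or length itself. *Phospho1* was too low to be fitted, so it has no alternatives.

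Over 9764 genes, same-numbered samples of the genotypes did not deviate together (correlation -0.009), so the replicate numbers were not taken as pairs. Most members did share a direction. *Mgp*, *Spp1*, *Ibsp*, *Alpl*, *Ank* and *Phex* were lower in replicate 2 of both genotypes, and *Enpp1* was higher. With the replicate block 290 genes passed, and in the simulated counts 27.4% of its calls were false, against 16.4% without it. *Mgp* then had a log2 fold change of 0.74 (edgeR adjusted p = 0.0394) and *Spp1* one of -0.58 (edgeR adjusted p = 0.128). *Ibsp* had one of -0.61, with an SE of 0.24 in place of 0.36 (edgeR adjusted p = 0.399). With 2 samples a genotype, changes such as that of *Ibsp* could not be resolved, and 50-base reads and a gene model of another build limit the length-scaled levels.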
